A study of Mus musculus with 3 samples.

Results

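Interleukin-10 (IL-10) and transforming growth factor-beta (TGF-beta) are cytokines that restrain immune cells, and 7 genes of these pathways were examined here in the bone marrow (BM) of mice given LECT2, a liver-derived blood protein. The 7 genes are Il10 and its receptor chains Il10ra and Il10rb, Tgfb1 and its receptors Tgfbr1 and Tgfbr2, and Smad7, which encodes an inhibitor of TGF-beta signalling. They were picked by symbol from the 17250 gene names in the deposited tables, with their values known and because Il10 and Tgfb1 moved in opposite directions, so the values below describe these genes and test nothing about their choice. All 7 had reads in every library and at least 1 RPKM in 1 of the 2 libraries of each comparison. No member has more than 1 row in the tables.

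The BM cells were flushed with PBS from the femur, tibia, pelvis and humerus of C57BL/6 mice of 6 to 8 weeks. Mice received recombinant mouse LECT2, made in Chinese hamster ovary cells, under the skin at 300 μg per kg once a day for 3 or 5 days, and the labels list no injection for the library of 0 days. Each time point has 1 library of poly(A) RNA, and the number of mice in it is not given in the sources used here. No solvent-injected library was analysed here, so LECT2 and the handling of the injected mice cannot be told apart. The comparisons ask how transcripts of the marrow differ after 3 and 5 days of LECT2, as part of a search for soluble factors from niche cells that act on haematopoietic stem cells.

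IL-10 is a homodimeric cytokine made by macrophages, dendritic cells, B cells and T cells. It binds IL-10RA, which pairs with the shared chain IL-10RB, and signals through the kinases JAK1 and TYK2 to STAT3, which switches on genes that limit the output of inflammatory cytokines. TGF-beta 1 is made by most blood cells, is stored in a latent complex and has to be released from it before it can bind. The free ligand binds TGFBR2, which recruits and phosphorylates TGFBR1. TGFBR1 then phosphorylates SMAD2 and SMAD3, which enter the nucleus with SMAD4. SMAD7 is an inhibitory SMAD that is itself induced by the pathway and blocks TGFBR1. In the marrow TGF-beta is known as a brake on stem cell division.

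With 1 library per time point no difference has a replicate check and no test of a condition was possible. Levels are given as RPKM, the reads per 1000 bases of gene scaled to the reads counted on all genes, and differences as log2 ratios of RPKM + 0.1, a scale on which the changes of low genes look smaller. The 95% intervals are exact Poisson intervals for a level and exact Clopper-Pearson intervals for a ratio of 2 counts. They cover counting error only, because 1 library per time point holds no spread between libraries of a time point. The reads passed through PCR, carry no molecular identifier and so need not be separate molecules, and the intervals may be too narrow. The libraries held 15146983 to 15523952 reads on genes. The ratios of all genes were not centred on 0. Taken over the 11144 genes that averaged 1 RPKM or more, log2 ratios had a median of 0.10 on day 3 and 0.31 on day 5, and after TMM scaling, which sets the libraries to the genes that differ least, it was 0.02 and 0.01. Among 11497 genes tested on day 5, 1786 were at least 2-fold higher and 680 lower, and after TMM scaling 832 were higher and 1145 lower. Longer genes also had higher ratios, as described for the receptors.

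The marrow label fits the markers, as S100a9, an abundant protein of neutrophils, had 61729 RPKM on day 0 and Elane, a protease of early granulocytes, had 1142. The makeup of the libraries was not the same. The summed RPKM of 10 late neutrophil markers went from 149807 on day 0 to 115886 on day 3 and 41359 on day 5. All 10 were at least 2-fold lower on day 5, beside 5.91% of all genes. The 12 macrophage markers summed to 307, 380 and 478 RPKM and the 6 monocyte markers to 1262, 1610 and 2185. In bulk marrow, fewer cells of a type and less RNA per cell cannot be told apart.

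Il10 was the member with the largest difference on the log2 scale. Il10 (Entrez gene 16153) spans chromosome 1, 131019845 to 131024974, plus strand, in 5 exons of the GRCm38 annotation (GENCODE M21), and had 190 reads on day 0, 61 on day 3 and 8 on day 5, or 9.37, 3.08 and 0.395 RPKM. Each library was below the one before it, and the counting intervals of the 3 levels did not overlap (8.09 to 10.8, 2.36 to 3.96 and 0.170 to 0.778 RPKM). The log2 ratio was −1.57 on day 3 (95% interval −2.04 to −1.18 without a pseudocount) and −4.26 on day 5 (−5.80 to −3.56). The level on day 5 was 4.21% of that on day 0, with an interval of 1.79% to 8.47%. The scale decides which step looks larger. In RPKM the level decreased by 6.29 from day 0 to day 3 and decreased by 2.69 from day 3 to day 5, whereas the log2 ratio of the later step was −2.69, on the 8 reads of day 5. With a pseudocount of 1 the log2 ratios of the steps were −1.34 and −1.55.

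Few genes had a ratio as low. Of 11496 other genes with at least 1 RPKM on day 0 or 5, 18 had a ratio at least as low as that of Il10, and on day 3 68 of 11324 did. Il10 is a short transcript, of 1306 bases in the tables, and the ratios of short genes were lower in general. Genes of 1051 to 1494 bases had a median log2 ratio of −0.27 on day 3 and −0.09 on day 5. Within this class Il10 lay at percentile 0.359 on day 3 and 0.180 on day 5. Its ratio was −1.32 and −4.19 with the length trend removed, and −1.66 and −4.53 after TMM scaling.

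The 3′ untranslated region of Il10 carries AU-rich heptamers, the kind of element through which ZFP36 (tristetraprolin) and related proteins speed the decay of cytokine mRNAs. The heptamer TATTTAT, searched on the transcript strand only, occurs at 4 places in the 706 bases of this region in the longest GENCODE M21 transcript. Of 20548 genes with a region of at least 50 bases, 28.0% hold the heptamer and 10.5% hold 2 or more. Per 1000 bases of the region Il10 has 5.67 of them, which is at percentile 99.4 of these genes. The sites are shown because Il10 has the most of them among the 7 genes, with the heptamer in capitals, on the plus strand of GRCm38 at chr1:131024388-131024410, chr1:131024421-131024443, chr1:131024484-131024506 and chr1:131024830-131024852, in this order.
Il10 site at base 128: ctccgaaaTATTTATtacctctg
Il10 site at base 161: tcccattcTATTTATtcactgag
Il10 site at base 224: ttttacagTATTTATtattttta
Il10 site at base 570: cagtttgtTATTTATaaccacct
Il10ra had 3 heptamers in 1693 bases, Tgfbr2 had 2 in 6085 and Smad7 had 1 in 1570, while Il10rb, Tgfb1 and Tgfbr1 had 0. Il10ra was at percentile 95.9 of genes by heptamers per base. By the shorter pentamer ATTTA per base Il10 was at percentile 98.1, Tgfb1, with 1 in 135 bases, at 97.2 and Il10rb at 94.3. Smad7 was at 72.1, Il10ra at 59.7, Tgfbr1 at 48.8 and Tgfbr2 at 44.4. Il10 thus does not stand apart from Tgfb1 and Il10rb by this measure. A match describes the letters and does not show binding.

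The IL-10 receptor chains stayed near their starting level. Il10ra (Entrez gene 16154, chromosome 9, 45253837 to 45269149, minus strand), the chain that binds the ligand, had 1805, 1648 and 1705 reads, or 33.3, 31.1 and 31.5 RPKM on days 0, 3 and 5. Its log2 ratio was −0.10 on day 3 (−0.19 to 0.00) and −0.08 on day 5 (−0.18 to 0.01). Il10rb (Entrez gene 16155, chromosome 16, 91406164 to 91425834, plus strand), the chain shared with other receptors of the family, had 992, 1049 and 1065 reads, or 34.0, 36.9 and 36.6 RPKM. Its log2 ratio was 0.12 on day 3 (−0.01 to 0.24) and 0.10 on day 5 (−0.02 to 0.23). For both chains the intervals on days 3 and 5 included 0. This holds for the deposited scale only. After TMM scaling Il10ra was at −0.39 and Il10rb at −0.21 on day 5, so the direction of Il10rb turned, and with the length trend removed they were at −0.60 and −0.03. Another annotated gene, Gm21970, shares up to 167 bases of an exon with Il10rb on the same strand, so reads of the 2 genes could be divided between them. The chains were also close to each other per length. The RPKM of Il10ra was 0.978 times that of Il10rb on day 0 (0.905 to 1.06), 0.845 times on day 3 (0.781 to 0.914) and 0.861 times on day 5 (0.797 to 0.930).

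**Figure D1:**
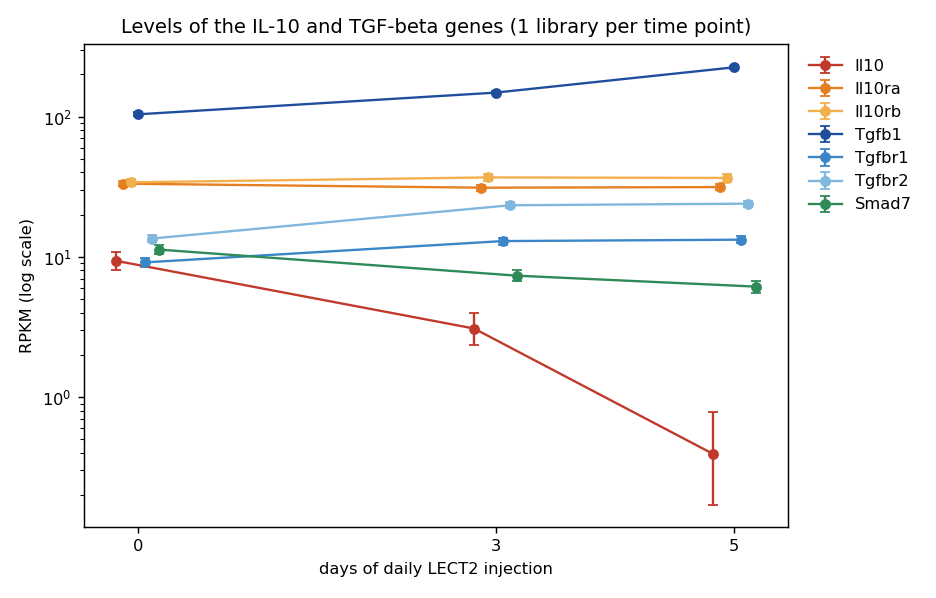
Level of each gene in RPKM (log axis) against days of daily LECT2, with 1 library per point and bars for the exact 95% Poisson interval of the count. Points are shifted slightly sideways so that the bars can be seen. Il10 goes from 9.37 to 0.395 RPKM while Tgfb1 goes from 104 to 225, and the IL-10 receptor chains stay between 31.1 and 36.9.

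Tgfb1 was the most abundant of the 7 genes in each library. Tgfb1 (Entrez gene 21803) spans chromosome 7, 25687002 to 25705077, plus strand, and its longest transcript has 7 exons. It had 3377 reads on day 0, 4707 on day 3 and 7304 on day 5, or 104, 148 and 225 RPKM. Each library was above the one before it, and the intervals did not overlap. Among all genes with reads its level stood at percentile 95.4, 97.2 and 98.3. The log2 ratio was 0.51 on day 3 (0.45 to 0.58) and 1.11 on day 5 (1.05 to 1.17), and between 3 and 5 days it was 0.60 (0.55 to 0.65). The difference was spread over both steps, with 44.5 RPKM gained from 0 to 3 days and 76.4 from 3 to 5 days.

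The size of this difference was common among all genes. Of 11496 other genes tested, 1365 had a ratio on day 5 at least as high. Tgfb1 lay at percentile 88.5 of all genes and at percentile 93.4 of the genes of 1886 to 2275 bases, whose median was 0.20. The ratio on day 5 was 0.80 after TMM scaling and 0.81 with median-of-ratios factors. Leaving out the top 100 genes by mean RPKM gave 0.91, and so did removal of the trend with length. The direction was thus the same in these alternatives, and the level on day 5 was at least 2-fold that on day 0 only on the deposited scale. As Il10 and Tgfb1 moved apart, the RPKM of Tgfb1 went from 11.1 times that of Il10 on day 0 (9.58 to 12.9) to 48.1 times on day 3 (37.4 to 63.0) and 569 times on day 5 (289 to 1319). Both levels of such a ratio come from 1 library, so that the scaling between libraries does not enter it.

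The other TGF-beta ligands were near the limit of detection. Tgfb2 had 2, 4 and 2 reads and Tgfb3 had 13, 11 and 14 on days 0, 3 and 5, against at least 3377 for Tgfb1.

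The TGF-beta receptors shared a time course that differed from that of their ligand. Tgfbr2 (Entrez gene 21813, chromosome 9, 116084293 to 116175360, minus strand), which binds the ligand, had 1008, 1698 and 1786 reads, or 13.5, 23.3 and 24.0 RPKM. Tgfbr1 (Entrez gene 21812, chromosome 4, 47353222 to 47414931, plus strand), the kinase that phosphorylates the SMADs, had 813, 1126 and 1180 reads, or 9.13, 12.96 and 13.26 RPKM. For both genes the libraries of 3 and 5 days lay close together and above that of 0 days. The log2 ratio of Tgfbr2 was 0.78 on day 3 (0.67 to 0.90) and 0.82 on day 5 (0.71 to 0.94), and that of Tgfbr1 was 0.50 (0.37 to 0.64) and 0.53 (0.41 to 0.67). Between 3 and 5 days they were at 0.04 (−0.06 to 0.13) and 0.03 (−0.09 to 0.15), intervals that include 0, and after TMM scaling both were at −0.19.

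Both receptors are long transcripts, of 4803 and 5735 bases in the tables, and long genes had higher ratios as a class. Genes of 4478 to 5799 bases had a median of 0.42 on day 3 and 0.66 on day 5. Within this class Tgfbr2 lay at percentile 87.2 on day 3 and 61.7 on day 5, and Tgfbr1 at 59.7 and 39.6. With the length trend removed Tgfbr2 was at 0.41 and 0.18, and Tgfbr1 at 0.06 and −0.19, so the direction of Tgfbr1 on day 5 turned. On day 5 neither receptor was thus above what genes of its length showed by more than 0.18 on the log2 scale. The RPKM of Tgfbr2 was 1.48 times that of Tgfbr1 on day 0 (1.35 to 1.63), 1.80 times on day 3 (1.67 to 1.94) and 1.81 times on day 5 (1.68 to 1.95).

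**Figure D2:**
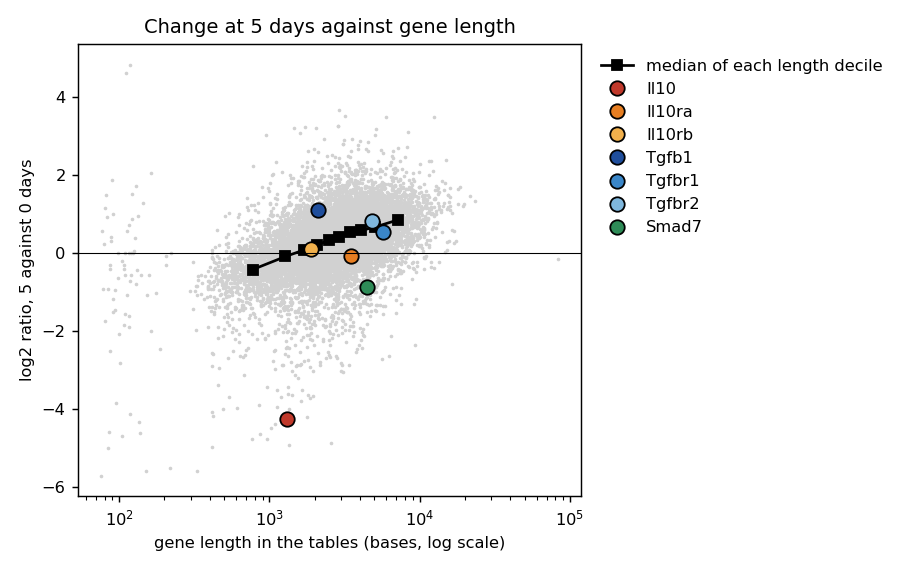
Log2 ratio at 5 against 0 days (RPKM + 0.1) against gene length in bases (log axis) for the 11144 genes that averaged 1 RPKM or more (grey), with the median of each length decile at its median length (black) and the 7 genes in colour. The decile medians climb from −0.43 to 0.85, Tgfbr1 and Tgfbr2 lie close to this line, Tgfb1 lies above it, and Smad7, Il10ra and Il10 lie below it.

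The promoters of the ligand and its receptors, all higher on day 3 on the deposited scale, are shown to compare their base composition. RefSeq promoters (GRCm38.p6) were matched for 3 of the 7 genes, Tgfb1, Tgfbr1 and Tgfbr2, and Il10, Il10ra, Il10rb and Smad7 were without an entry in this table. The 250 bases before the most upstream listed start are printed 5′ to 3′, with each GC box (GGGCGG on either strand, the core of the site of SP1-type factors) in capitals. The windows are chr7:25686752-25687001 (plus strand) for Tgfb1, chr4:47352972-47353221 (plus strand) for Tgfbr1 and chr9:116175364-116175613 (minus strand) for Tgfbr2.
Tgfb1: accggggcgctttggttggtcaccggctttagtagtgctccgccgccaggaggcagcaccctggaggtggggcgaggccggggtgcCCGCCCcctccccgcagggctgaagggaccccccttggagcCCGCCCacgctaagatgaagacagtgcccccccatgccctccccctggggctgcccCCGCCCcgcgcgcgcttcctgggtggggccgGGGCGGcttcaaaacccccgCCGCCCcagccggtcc
Tgfbr1: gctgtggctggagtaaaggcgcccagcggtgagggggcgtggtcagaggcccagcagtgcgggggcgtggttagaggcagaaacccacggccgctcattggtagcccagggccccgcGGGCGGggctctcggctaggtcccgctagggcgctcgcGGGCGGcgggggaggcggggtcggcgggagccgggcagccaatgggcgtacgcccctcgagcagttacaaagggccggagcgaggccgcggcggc
Tgfbr2: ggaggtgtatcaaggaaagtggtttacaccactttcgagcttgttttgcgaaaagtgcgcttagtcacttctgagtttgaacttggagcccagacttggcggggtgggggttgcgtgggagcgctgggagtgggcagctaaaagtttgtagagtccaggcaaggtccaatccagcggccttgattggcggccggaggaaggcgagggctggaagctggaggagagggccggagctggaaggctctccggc

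The Tgfb1 window has 75.2% G and C, with 5 GC boxes, and the Tgfbr1 window 74.8%, with 2. They stand at percentile 96.1 and 95.8 of the 32851 promoters in the table, whose median is 52.4%. The Tgfbr2 window has 58.4%, at percentile 67.8, with 0 GC boxes. Of all promoters 32.7% hold a GC box, so 2 of the 3 genes share a common feature that Tgfbr2 lacks in these letters. The AP-1 element TGANTCA, the TATA box TATAAA, the cyclic AMP response element TGACGTCA, the Smad box pair GTCTAGAC and the PU.1 core GAGGAAGT had 0 matches on either strand of the 3 windows. They occur in 6.75%, 12.4%, 1.55%, 0.167% and 2.44% of all promoters, and none of the motifs searched contains another.

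Smad7 was lower in both treated libraries. Smad7 (Entrez gene 17131) spans chromosome 18, 75367529 to 75395935, plus strand, and its longest transcript has 4 exons. It had 777 reads on day 0, 494 on day 3 and 423 on day 5, or 11.3, 7.34 and 6.14 RPKM. The level on day 0 stood apart from the others, and the intervals on day 3 (6.71 to 8.02) and 5 days (5.57 to 6.75) overlapped slightly. The log2 ratio was −0.61 on day 3 (−0.78 to −0.45) and −0.87 on day 5 (−1.05 to −0.70). Smad7 is a long transcript, of 4441 bases, and genes of 3725 to 4477 bases had medians of 0.31 and 0.58. In this class Smad7 lay at percentile 1.35 on day 3 and 3.14 on day 5. Its ratio on day 5 was past 2-fold in each other scaling, at −1.17 with TMM and −1.16 with median-of-ratios factors. It was −1.07 when the top 100 genes by mean RPKM were left out and −1.48 after removal of the trend with length. Thus Smad7, a gene induced by the pathway, and Tgfb1 lay in opposite directions.

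**Figure D3:**
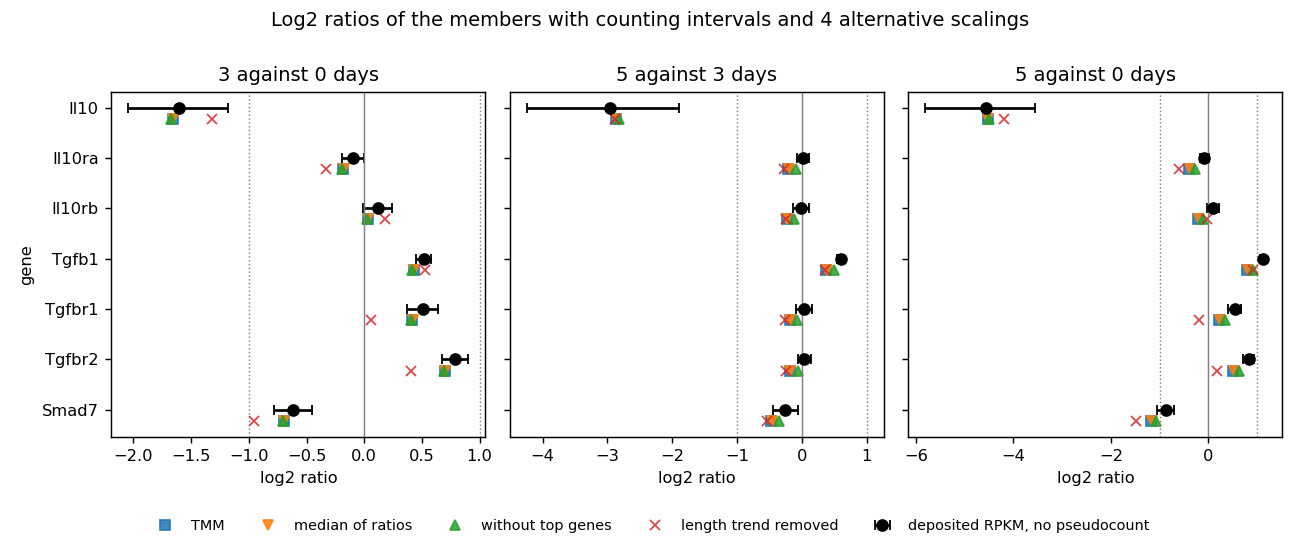
Log2 ratios of the 7 genes in the 3 comparisons, with the deposited RPKM without a pseudocount and its 95% counting interval (black) and the ratios (RPKM + 0.1) under 4 other scalings (symbols below each point); dotted lines mark 2-fold. Il10 and Smad7 lie below 0 in each scaling on days 3 and 5 and Tgfb1 above it, whereas Tgfbr1 on day 5 lies on both sides, from −0.19 to 0.54.

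Counted by the 2-fold rule, 1 of the 7 genes (Il10) was lower on day 3 and 0 were higher. Of all 11325 genes tested 2.41% were lower and 4.08% higher. On day 5 1 gene (Il10) was lower and 1 (Tgfb1) higher, against 5.91% and 15.5% of 11497 genes. Between 3 and 5 days 1 gene (Il10) was lower and 0 were higher, against 3.45% and 1.95% of 11375 genes. These contrasts chose the genes, and nothing is read from the counts. The median log2 ratio of the 7 genes was 0.12 on day 3 and 0.10 on day 5, beside 0.10 and 0.31 for all genes. The 3 comparisons share libraries and are not independent of each other.

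The order of the levels changed with time. On day 0 Tgfb1 was followed by Il10rb and Il10ra, whose intervals overlapped, then Tgfbr2, Smad7, Il10 and Tgfbr1. The intervals of Smad7 and Il10 overlapped, as did those of Il10 and Tgfbr1. At 3 and 5 days the order was Tgfb1, Il10rb, Il10ra, Tgfbr2, Tgfbr1, Smad7 and Il10, and no neighbours overlapped. Il10 thus went from a level like that of Tgfbr1 to the lowest place. Its RPKM was 0.282 times that of its receptor chain Il10ra on day 0 (0.241 to 0.327), 0.0990 times on day 3 (0.0754 to 0.128) and 0.0125 times on day 5 (0.00541 to 0.0248).

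**Figure D4:**
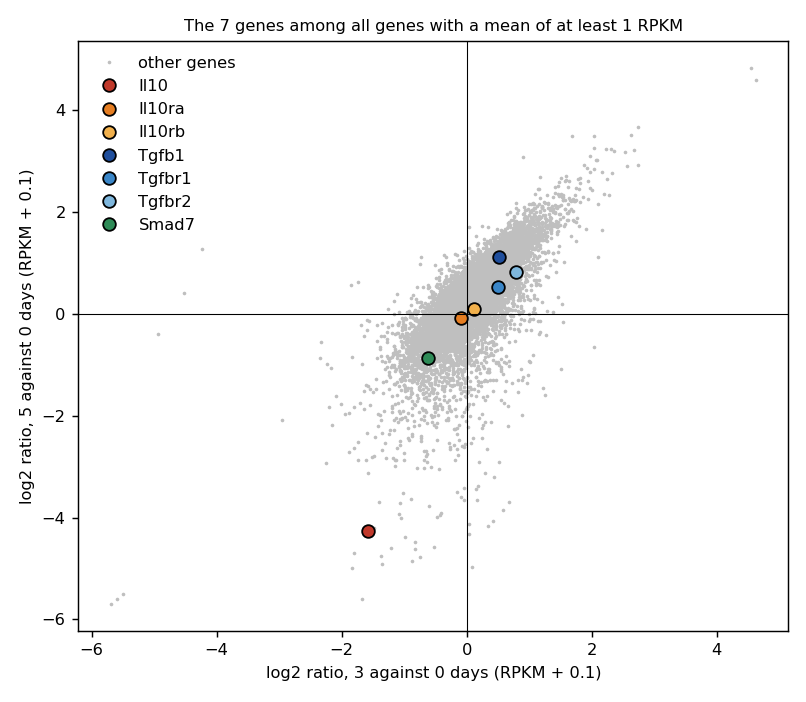
Log2 ratio on day 5 against that on day 3, both relative to 0 days (RPKM + 0.1), for the 11144 genes that averaged 1 RPKM or more (grey) and the 7 genes (colour). Il10, at −1.57 and −4.26, lies away from the bulk of the genes, Smad7 lies at its lower edge, and the other 5 lie within it. Both axes share the library of 0 days.

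The genes whose course was most like that of Il10 were 5430421N21Rik, Cxcl10, Il1r2, Cxcl2 and Irg1. Likeness was the distance between the log2 ratios on days 3 and 5 among 11379 genes with at least 20 reads in each of the 3 libraries. The distance was 0.10 for 5430421N21Rik and 0.58 to 0.92 for the others. Il10 itself had 8 reads on day 5, so genes with reads as few as its own were not ranked. The counting interval of its ratio on day 5, −5.80 to −3.56, is wide beside these distances. Cxcl10 and Cxcl2 encode chemokines, Il1r2 a decoy receptor for interleukin-1, and Irg1 the enzyme that makes itaconate in activated macrophages. Cxcl2, for example, had 6376, 3142 and 304 reads. For Tgfb1 the nearest were Pds5b, Adat1, Myh10, Med25 and Ube3c, at distances of 0.00 to 0.01, a crowded part of the distribution. With 3 libraries such likeness is a description of 2 ratios.

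Most other genes of the IL-10 family were too low to compare. Of 11 further ligands and receptor chains of the family, 8 have a row and 2 reached 1 RPKM. Il28ra, the older name of Ifnlr1, the interferon-lambda receptor chain that pairs with IL-10RB, had 303, 633 and 322 reads, or 4.86, 10.4 and 5.17 RPKM. It was thus high on day 3 only, with a log2 ratio of 1.08 on day 3 and 0.09 on day 5, and its ratio on day 3 lay at the 2-fold limit after TMM scaling and below it with the length trend removed. Il20rb had 1.46, 1.73 and 1.48 RPKM, and Il22ra2, which encodes a soluble decoy receptor for IL-22, had 15, 13 and 15 reads. The ligands Il19, Il22 and Il24 had 0 to 4 reads in each library.

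Of 15 genes of IL-10 signalling and its targets, 14 were tested. On day 3 0 were past 2-fold in either direction, beside 4.08% of all genes higher and 2.41% lower. On day 5 1 was higher and 4 lower, beside 15.5% and 5.91%. The median on day 5 was 0.21, but −0.10 after TMM scaling and −0.33 with the length trend removed, so its direction depends on the scaling. The 4 lower genes were past 2-fold in both of these scalings too. Tyk2, the kinase bound to IL-10RB, had 9.76, 16.9 and 25.3 RPKM and a log2 ratio of 1.36 on day 5, and 0.71 with the length trend removed. The 4 lower genes were Socs3, Il1rn, Zfp36 and Dusp1. Socs3, which STAT3 induces and which restrains cytokine receptors, had 29.8, 22.6 and 8.32 RPKM and a log2 ratio of −1.83 on day 5. Il1rn, the interleukin-1 receptor antagonist, had 33.1, 33.7 and 7.04 RPKM, with a log2 ratio of −2.22. Zfp36 had 1228, 1055 and 395 RPKM, with −1.64, and Dusp1, a phosphatase of MAP kinases, had 388, 430 and 164 RPKM, with −1.24. On day 3 their ratios were −0.40, 0.03, −0.22 and 0.15, beside −1.57 for Il10. All 4 are also induced by other stimuli. The late neutrophil markers were lower on day 5 too, and the part of that shift in these genes was not tested. Of the other transducers, Stat3 had 43.3, 51.4 and 43.8 RPKM and Jak1 had 41.0, 65.2 and 58.9. Hmox1, a heme-degrading enzyme, had 67.7, 76.2 and 83.0 RPKM.

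Of 17 genes known to regulate Il10 transcription 16 were tested, and on day 3 0 were past 2-fold, beside 4.08% of all genes higher and 2.41% lower. On day 5 the count past 2-fold in the upward direction was 0, beside 15.5%, and the median was 0.10, but −0.20 after TMM scaling and −0.29 with the length trend removed. The most abundant were Cebpb, with 153, 143 and 90.7 RPKM, Irf4, with 66.3, 74.4 and 55.2, and Nfkb1, with 35.6, 47.0 and 57.4. Sp1 had the highest ratio on day 5, at 0.86, and 0.02 with the length trend removed. Maf, a factor that drives Il10 in macrophages and T cells, had 7.84, 6.89 and 5.95 RPKM.

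In the TGF-beta system, few genes that store or release the ligand were well detected. Of 17 such genes 16 have a row and 7 were tested. On day 3 0 were past 2-fold, beside 4.08% of all genes higher and 2.41% lower. On day 5 1 was higher and 2 were lower, beside 15.5% and 5.91% of all genes. After TMM scaling, as with the length trend removed, 0 were higher and 3 lower on day 5, Thbs1 being added. Thbs1, thrombospondin-1, which can activate latent TGF-beta, had 188, 265 and 97.4 RPKM, with log2 ratios of 0.50 on day 3 and −0.95 on day 5. Lrrc33, the older name of Nrros, which anchors latent TGF-beta on myeloid cells, had 55.4, 60.0 and 73.1 RPKM. Furin, which cleaves the precursor, had 23.4, 29.0 and 27.4. Itgav, an integrin chain that takes part in activation, was the higher gene, with 2.11, 3.94 and 5.03 RPKM, and the lower ones were Bgn and Dcn, small proteoglycans of the matrix that bind TGF-beta. Dcn had 54, 30 and 12 reads and Bgn 221, 184 and 104. Ltbp4 had 14, 24 and 51 reads, the largest ratio of this list at 1.41, but stayed below 1 RPKM. The summed RPKM of 8 osteolineage markers was 71.3, 68.1 and 26.3, and 5 of 6 tested were at least 2-fold lower on day 5, so that Bgn and Dcn moved with markers of another cell type. The part of that shift in them was not tested.

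Receptors of the TGF-beta and BMP families moved both ways. Of 11 tested, 1 was higher and 0 lower on day 3, beside 4.08% and 2.41% of all genes, and 5 were higher and 2 lower on day 5, beside 15.5% and 5.91%. The median on day 5 was 0.78, and 0.31 for all genes. After TMM scaling 2 were higher on day 5 (Bmpr2 and Acvr1b), beside 7.24% of all genes, and the median was 0.49, and with the length trend removed 1 was higher (Bmpr2) and the median was 0.45. The 2 lower genes were past 2-fold in both. Acvrl1, the ALK1 receptor, had 1676, 1759 and 486 reads, or 29.8, 32.0 and 8.64 RPKM, and its log2 ratio on day 5 was −1.77. Bmpr1a was the other lower gene, at −1.34. The higher ones were Bmpr2, Acvr1, Acvr1b, Eng and Tgfbrap1, of which Bmpr2 had the largest ratio, 2.61, on 22, 98 and 162 reads. Tgfbrap1, a protein that associates with the receptors, had 4.48, 7.06 and 10.2 RPKM. Fkbp1a, which holds TGFBR1 inactive, was the most abundant, with 54.6, 51.1 and 78.9 RPKM.

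On the deposited scale, though not in each other scaling, all 7 SMAD transducers and partners that were tested had ratios above 0 at both times. Their median was 0.48 on day 3 and 0.89 on day 5, beside 0.10 and 0.31 for all genes, and long genes had higher ratios as a class. At both times 2 of the 7 were at least 2-fold higher, beside 4.08% and 15.5% of all genes. At both times 0 were lower, beside 2.41% and 5.91%. After TMM scaling the median on day 5 was 0.59, and with the length trend removed it was 0.33. Ep300, a histone acetyltransferase that SMADs recruit, had 11.2, 24.4 and 31.4 RPKM and was past 2-fold at both times, though at 0.52 and 0.58 with the length trend removed. Also past 2-fold at both times was Zfyve9 (SARA), which presents SMADs to the receptor, with 31, 67 and 120 reads and a ratio of 0.99 on day 3 after TMM scaling. Crebbp had 11.5, 16.1 and 17.8 RPKM, Smad4 had 10.3, 15.5 and 18.4, and Smad3 was lowest in ratio on day 5, at 0.20. The direction of Smad3 on day 5 turned to −0.11 after TMM scaling and −0.48 with the length trend removed, and that of Crebbp to −0.20 with the latter. Smad2 was counted with only 3, 8 and 9 reads over 8752 bases.

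For several other inhibitors of the pathway the direction depended on the scaling. Of 17 genes for SMAD inhibitors and for enzymes of receptor and SMAD turnover, 15 were tested on day 3, with 1 higher and 0 lower, beside 4.08% and 2.41% of all genes. On day 5 14 were tested, with 0 higher and 1 lower, beside 15.5% and 5.91%. Of the 14 on day 5, 2 had ratios below 0 on the deposited scale, 6 after TMM scaling and 10 with the length trend removed. The median was 0.33 on day 3 and 0.47 on day 5, but after TMM scaling it was 0.17 on day 5 and with the length trend removed −0.23, and in both scalings 2 genes (Tgif1 and Tgif2) were lower. Smad6, the other inhibitory SMAD, was near detection with 8, 24 and 35 reads. Smurf2, the ubiquitin ligase that SMAD7 brings to the receptor, had 6.63, 9.51 and 11.1 RPKM. Strap, which binds SMAD7 and the receptor, had 52.3, 42.1 and 55.2, Usp4 had 39.1, 45.4 and 46.3, and Usp15 had 35.4, 44.5 and 39.8, the last 2 being deubiquitinases. Tgif2, a repressor of SMAD targets, was the lower gene on day 5, with 8.54, 4.78 and 3.86 RPKM and a ratio of −1.13, and Skil, which binds SMADs, was the higher gene on day 3, with 25, 118 and 66 reads.

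Genes known to respond to TGF-beta went both ways as well. Of 14 tested, 1 was higher and 1 lower on day 3, beside 4.08% and 2.41% of all genes. On day 5 2 were higher and 4 lower, beside 15.5% and 5.91%, so that on the deposited scale the share of higher genes was near the background. The same 2 were higher after TMM scaling and with the length trend removed, beside 7.24% and 5.05% of all genes. The median was −0.34 on day 3 and −0.44 on day 5, beside 0.10 and 0.31 for all genes. It was −0.42 and −0.75 after TMM scaling and −0.14 and −0.53 with the length trend removed. On day 5 a further gene, Cdkn1c, was lower after TMM scaling and with the length trend removed. Fn1, fibronectin, had 25.9, 102 and 223 RPKM, with a log2 ratio of 1.97 on day 3 and 3.10 on day 5. Tgfbi, a matrix protein also made by monocytes, had 55.7, 109 and 159 RPKM, with 0.97 and 1.51. The lower genes on day 5 were Junb, Bhlhe40, Tsc22d1 and Col1a1. Junb, an AP-1 subunit, had 716, 535 and 210 RPKM and a ratio of −1.77 on day 5. Col1a1, type I collagen, is also on the osteolineage list. Fn1 and Tgfbi are also expressed by monocytes and macrophages, whose summed markers given above were higher on day 5, and the part of this in their levels was not tested.

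**Figure D5:**
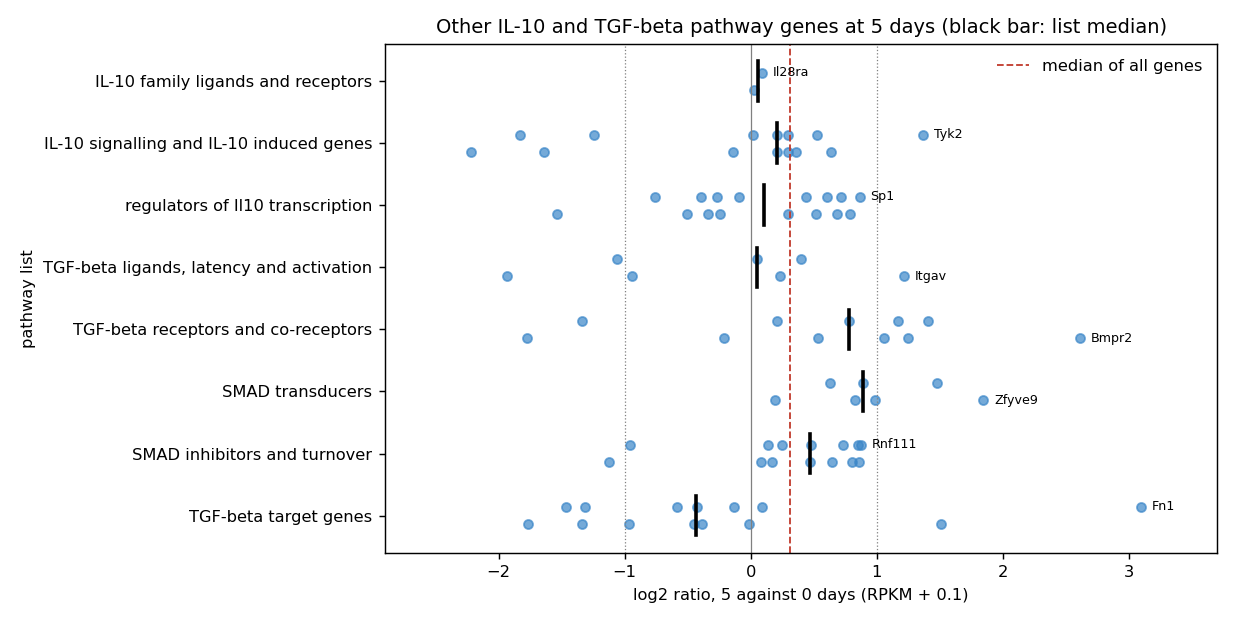
Log2 ratio at 5 against 0 days (RPKM + 0.1) of the other pathway genes that averaged 1 RPKM or more, 1 row of points per list, with the list median (black bar), the median of all genes (dashed) and 2-fold (dotted), and the highest gene of each list named. The target genes have the lowest median, −0.44, with Fn1 far to the right at 3.10, and the SMAD transducers the highest, 0.89.

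Over the 8 lists together, 112 of 116 genes have a row. On day 3 6 of 86 tested were at least 2-fold higher and 1 lower, or 6.98% and 1.16%, beside 4.08% and 2.41% of all genes. On day 5 11 of 85 were higher and 14 lower, or 12.9% and 16.5%, beside 15.5% and 5.91% of all genes. After TMM scaling 7 were higher and 18 lower, beside 7.24% and 9.96% of all genes. The median on day 5 was 0.21 on the deposited scale, −0.10 after TMM scaling and −0.28 with the length trend removed.

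Cells known to make IL-10 or TGF-beta were compared beside these values by their markers. Of the macrophage markers 2 of 12 were at least 2-fold higher on day 3 and 6 on day 5, beside 4.08% and 15.5% of all genes, with medians of 0.60 and 1.02, and 0 were lower. The complement genes C1qa, C1qb and C1qc, 3 of the 12, had ratios below 0 on both days. On day 5 the count was 3 after TMM scaling (Csf1r, Mertk and Siglec1), with a median of 0.72, and 4 with the length trend removed (Cd68 added), with a median of 0.40. Cd68, the most abundant, had 56.1, 90.8 and 136 RPKM. Of the 6 monocyte markers 2 were higher on day 3 and 5 on day 5, or 4 on day 5 in either other scaling, and Ly6c2 had 932, 993 and 1138 RPKM. Among B cell markers 0 of 8 were past 2-fold at either time, and 8 of 8 ratios were below 0 on day 5 with a median of −0.36, with Cd79a at 827, 614 and 532 RPKM. Of 10 T and NK cell markers 9 had ratios below 0 on day 3, with a median of −0.66. At least 2-fold lower were 2, Cd3d at −1.38 and Cd3e at −1.15, beside 2.41% of all genes. With the length trend removed 1 was lower (Cd3d), and after TMM scaling 3 were, with Cd3g added. On day 5 1 was lower, beside 5.91% of all genes, and the median was −0.10. Nkg7 had 120, 74.7 and 114 RPKM. Megakaryocyte and platelet markers, whose cells store TGF-beta 1, summed to 50.1, 33.3 and 46.0 RPKM. On day 3 2 of 7 tested were lower, Pf4 at −2.34 and Ppbp at −1.16, beside 2.41% of all genes. With the length trend removed 1 was lower (Pf4). Pf4 and Ppbp were at least 2-fold higher on day 5 than on day 3, beside 1.95% of all genes. Itgb3, with the highest mean, had 10.2, 12.4 and 8.31 RPKM. For dendritic cells 0 of 4 markers tested were past 2-fold and 4 of 4 were below 0 on day 3, with a median of −0.45, and Siglech had 52.3, 31.0 and 39.2 RPKM.
Tgfb1 went in the direction of the macrophage and monocyte markers. On the deposited scale Il10 had the sign of most lists. There 10 of the 12 marker medians were below 0 on day 3 and 9 on day 5, so that its sign singles out no cell type. With the length trend removed, the day 3 medians of the late neutrophil, promyelocyte and erythroid markers were above 0, at 0.14, 0.21 and 0.20. On day 3 the medians of the endothelial and stromal, megakaryocyte, osteolineage and mast cell markers were −0.60, −0.36, −0.34 and −0.33. On day 5 S100a9 was at −2.14 and Spp1 at −1.80. The B cell median was below 0 at both times, at −0.34 and −0.36, and at −0.07 on day 3 with the length trend removed. For late neutrophils the median was −0.19 on day 3 and −1.84 on day 5. The part of these shifts in either gene was not tested. Of the remaining lists, the promyelocyte markers had a median of 0.45 on day 5 (Elane 0.35), the mast cell and basophil markers −0.13 (Prss34 −0.13), the erythroid markers −0.51 (Hba-a1 −1.92) and the endothelial and stromal markers −0.53. In this last list Pecam1 was at 0.13, while Cxcl12 and Lepr, 2 of the 4 tested, were at least 2-fold lower, beside 5.91% of all genes.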

How the data were processed

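RNA-seq was analysed for 3 bone marrow libraries, 1 per time point, grouped by the labels. The authors extracted RNA with Trizol, prepared TruSeq libraries and sequenced them on an Illumina HiSeq instrument. The deposited tables give read counts per gene and RPKM that the authors computed with Cufflinks. The submitters' processing notes name build mm8, and the aligner is not given in the sources used here. Columns with the authors' log2 ratios, p-values and false discovery rates were not used. Genes with 0 reads, listed by the authors at 0.01 RPKM, were set to 0.

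Log2 ratios used RPKM + 0.1. A gene was tested, that is compared, where 1 of the 2 libraries had at least 1 RPKM, and counted when the ratio was at least 2-fold. Levels had exact 95% Poisson intervals and ratios Clopper-Pearson intervals. The intervals and ratios were tested on simulated data. Alternatives were pseudocounts of 1 and 0.01, TMM factors (edgeR 4.0.16), median-of-ratios factors (DESeq2 1.42.0), leaving out the 100 most abundant genes, removing the trend with length (lowess, span 0.3, statsmodels 0.14.6), summing rows of a gene, other minimums and folds of 1.5 and 4. Python 3.11.15 and R 4.3.3 were used. edgeR and DESeq2 gave scaling factors only.

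The members and lists were chosen with earlier results of these data known. The genes named were the 7 members, in each pathway list the 3 with the highest mean RPKM and the largest ratios in each direction at 5 days (at least 20 reads in 1 library), the most abundant marker of each cell type, and the 5 nearest in pattern to Il10 and Tgfb1. Other genes were named as the genes past 2-fold or after their values were seen, among them Maf, Smurf2, Smad2, Smad6, Tgfb2 and Tgfb3. GENCODE M21 (GRCm38) and RefSeq (GRCm38.p6) gave positions and sequences, not counts. Some genes of the lists are not reported here by name.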

Additional observations from a re-analysis of the deposited data

How the results depend on the processing

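With 1 library per time point no value has a biological error, and depth limits Il10 most, which had 8 reads on day 5. No paired analysis was possible because each time point has 1 library and the labels carry no replicate numbers. Il10 on day 5 was −2.89 with a pseudocount of 1, against −4.26. Tgfb1 on day 5 was 0.80 with TMM and 0.81 with median-of-ratios, against 1.11. It was 0.91 both when the top 100 genes by mean RPKM were left out and after removal of the trend with length. Under these 4 scalings 0 members were at least 2-fold higher on day 5 and 2 were lower (Il10 and Smad7). With a 4-fold limit 0 members were higher on day 5 and 0 lower on day 3, and with a 1.5-fold limit 2 were higher and 2 lower on day 5, 1 higher and 2 lower on day 3, and 1 higher between 3 and 5 days. With a minimum of 5 RPKM Il10 was not compared between 3 and 5 days, leaving 0 lower.

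Of the pathway genes, 6 were higher on day 3, and 3 with a pseudocount of 1 or a minimum of 5 RPKM, 0 at 4-fold and 22 at 1.5-fold; 1 was lower, and 3 with no minimum, 0 at 4-fold and 6 at 1.5-fold. At 5 days 11 were higher, and 7 with TMM or median-of-ratios, 4 with the length trend removed, 17 with no minimum, 2 at 4-fold and 28 at 1.5-fold. At 5 days 14 were lower, and 1 at 4-fold. Between 3 and 5 days 1 was higher, and 0 with TMM, median-of-ratios, length trend removed or 4-fold, 2 with rows summed, 3 with no minimum and 8 at 1.5-fold, and 11 were lower, and 1 at 4-fold. The cause of these shifts was not tested. Among all genes 1786 were higher on day 5, and 832 with TMM, 858 with median-of-ratios, 1114 without the top 100, 581 with the length trend removed and 1140 with a pseudocount of 1. The 680 lower were 1145 with TMM and 1126 with median-of-ratios. TMM, median-of-ratios and leaving out the top 100 each turned the sign of 4 of 21 member ratios (Il10rb on day 5, and Il10ra, Tgfbr1 and Tgfbr2 between 3 and 5 days), and removing the length trend turned 5, with Tgfbr1 on day 5 added. The pseudocounts turned 0.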

Other observations

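A few pathway genes had courses not described above and were chosen after their values were seen. Itgb6, the integrin chain that releases TGF-beta on epithelia, had 62, 16 and 11 reads at 0, 3 and 5 days, with log2 ratios of −1.54 and −1.90. Socs1, an inhibitor of JAK kinases, had 4, 6 and 16 reads, whereas Socs3 had 1270, 940 and 354. Tsc22d1 had 2127, 818 and 836 reads, so that nearly all of its difference was present at 3 days, while Col1a1 had 1000, 1517 and 398 and was higher at 3 days before it was lower.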
